A study of Mus musculus with 9 samples.

Results

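The 10 genes described here encode subunits of cytokine receptors of T cells: Il2ra, Il2rb, Il4ra, Il7r, Il21r, Il12rb1, Il12rb2, Il6st, Il18r1 and Il18rap. They were taken by gene symbol from the 37022 genes with a row in the deposited tables, and all 10 had one. The series holds 9 libraries of newly made RNA from CD8+ T cells of the mouse, the T lymphocytes that kill infected or transformed cells. Cells of every group were fed 0.2 mM 5-ethynyl uridine, a uridine analogue built into new RNA, for 30 minutes, and the marked RNA was captured and sequenced. The 3 groups of 3 libraries each differ in treatment: cells were stimulated acutely, chronically, or chronically while MEK, the kinase that activates ERK, was inhibited. The stimulus, its duration, the inhibitor and its dose, and the strain, sex and age of the mice are not given in the labels. The labels do not say that libraries came from separate animals or cultures, so p-values measure only the spread between these libraries.

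A cytokine receptor of this kind is built from 2 or more chains, and a response needs chains that bind the ligand and chains that carry the signal. The receptors for IL-2, IL-4, IL-7 and IL-21 share the common gamma chain and, like the IL-12 receptor and gp130, act through Janus kinases and STAT factors. The IL-18 receptor belongs to the IL-1 receptor family and acts through MyD88 and IRAK kinases. In CD8+ T cells these receptors govern clonal expansion, survival, memory formation and production of interferon gamma.

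Promoter sequences are shown for 3 members because they hold a letter pattern of STAT type, and STAT factors are the main transcription factors below most of these receptors. A RefSeq window of mouse build GRCm38.p6 was found for 8 of the 10 members; Il2rb and Il12rb1 had none. Each line runs 5′ to 3′ and covers the bases ahead of the RefSeq start of the gene, without bases of annotated exons. Capitals mark matches to TTCNNNGAA, a palindrome that reads alike on both strands. Il7r is on the minus strand at chr15:9529877-9530040, Il12rb2 on the minus strand at chr6:67376189-67376438, and Il18r1 on the plus strand at chr1:40465811-40465969. The stretches of Il7r and Il18r1 lie ahead of the transcript used for their values and inside the annotated gene.
Il7r: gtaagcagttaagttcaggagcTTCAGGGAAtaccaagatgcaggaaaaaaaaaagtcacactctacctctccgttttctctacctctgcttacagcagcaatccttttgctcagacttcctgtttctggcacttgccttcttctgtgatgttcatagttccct
Il12rb2: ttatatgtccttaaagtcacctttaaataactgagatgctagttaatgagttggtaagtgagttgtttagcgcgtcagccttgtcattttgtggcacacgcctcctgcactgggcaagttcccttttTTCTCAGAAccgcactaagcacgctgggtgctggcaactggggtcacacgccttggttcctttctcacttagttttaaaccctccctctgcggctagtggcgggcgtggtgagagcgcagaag
Il18r1: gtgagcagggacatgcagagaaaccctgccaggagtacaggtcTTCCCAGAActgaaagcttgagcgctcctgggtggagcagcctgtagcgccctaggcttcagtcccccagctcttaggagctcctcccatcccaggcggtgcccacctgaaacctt
These 3 of the 8 members with a window held the STAT pattern in the 250 bases before the start, against 7.02% of 32851 mouse promoter windows of that length. It was the pattern with the most members among 7 searched in the same 8 windows, so its count is a description without a test. Il18r1 had 3 RefSeq windows, and the window nearest to the start of the transcript used was taken. Il18r1 had a further match outside the stretch shown. The NF-kB pattern was in 2 of the 8 windows, those of RUNX and FOXO in 1 each and that of NFAT in 0. Their shares of all windows were 17.6%, 14%, 3.17% and 18.6% in that order. The ETS pattern CCGGAAG and the AP-1 pattern TGANTCA were in none of the 8 windows, against 6.91% and 6.75% of all windows. At such shares, absence from 8 windows says nothing about the members. A match is a string of letters and was not tested as a binding site.

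Values are gene-body signal as deposited, brought to a common scale between libraries by a trimmed mean of log ratios. Depth in reads is unknown, so no counting error is given. Gene-body signal over all genes summed to 48601757 to 52216192 per library. Rows that resemble ribosomal RNA took 19.1 to 22.3% of it in acute, 34.2 to 40.6% in chronic and 29.0 to 36.1% in MEK-inhibited libraries, so the choice of scaling moves every fold change between groups. Scaled by library totals instead, the median log2 fold change of all genes was -0.50 for chronic against acute, 0.14 for MEK-inhibited against chronic and -0.37 for MEK-inhibited against acute. Results below that depend on this choice are given both ways. In bulk RNA, fewer cells of a type and less RNA per cell cannot be told apart. All 8 genes of the CD8 T cell list were measured, and their summed signal was 38080 to 45750 in acute, 25640 to 28537 in chronic and 35944 to 39180 in MEK-inhibited libraries. These genes did not move alike. Cd8a had means of 4061, 968 and 2881 in that order, Cd8b1 of 1872, 1229 and 2041, and Cd3d of 1266, 1244 and 1397. Cd3g, at 1500, 1592 and 1530, was the only gene of the list with a higher mean in chronic than in acute libraries. Of other cell types, the B cell list of 5 genes summed to 534 to 565, 189 to 219 and 160 to 435 in that order, and the myeloid and dendritic list of 7 genes to 381 to 520, 431 to 472 and 260 to 450. The natural killer and innate list of 4 genes summed to 1302 to 1440, 972 to 1864 and 1580 to 1712, nearly all of it Eomes, which T cells also express, while its Ncr1 reached at most 6.40 in any library and Lyz2 of myeloid cells at most 8.49. The CD4 T cell list of 2 genes summed to 1040 to 1367, 1054 to 1383 and 1729 to 2016, with Cd4 at a mean of 442 in acute and 116 in MEK-inhibited libraries and Zbtb7b at 789 and 1769. The regulatory T cell list of 2 genes summed to 18859 to 24259, 9185 to 10066 and 15845 to 17573. Its 2 genes differed: Lrrc32, at means of 15659, 1898 and 8046, was lowest in the chronic libraries, and Ikzf4, at 5152, 7664 and 8463, in the acute ones. The part of other cells in the results was not tested. Dusp6, an ERK target and feedback phosphatase, was at 2395 ± 89.2 (SD, n = 3) in chronic and 204 ± 9.69 in MEK-inhibited libraries.

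In brief, the receptor genes moved in different directions. Under chronic stimulation Il2ra, Il7r, Il12rb1 and Il12rb2 were higher than under acute stimulation, Il18r1 was 7.38-fold lower and Il18rap 2.59-fold lower. The rises of Il2ra and Il12rb1 were not called when libraries were scaled by their totals. With MEK inhibition, Il7r was 2.02-fold lower than under chronic stimulation alone, while Il18r1 was 6.05-fold, Il21r 1.81-fold and Il2rb 1.60-fold higher. A member was called when limma's p, adjusted by Benjamini and Hochberg over all 15942 genes tested, was under 0.05. All 10 members passed the filter on low signal. Chronic against acute, 8 of 10 were called, against 33.9% of all genes tested, with 4 higher (18% of all genes) and 4 lower (15.9%). MEK-inhibited against chronic, 8 of 10 were called, against 17.6%, with 5 higher (9.93% of all genes) and 3 lower (7.65%). MEK-inhibited against acute, 5 of 10 were called, against 25.8%, with 5 higher (14.4% of all genes) and 0 lower (11.5%). With library totals the split was 2 higher and 6 lower, 5 higher and 1 lower, and 0 higher and 4 lower in that order, against 6.87% and 42.9%, 11.1% and 4.65%, and 5.99% and 31.1% of all genes. The median absolute log2 fold change was 0.59 over the members and 0.41 over all genes for chronic against acute, 0.58 and 0.27 for MEK-inhibited against chronic, and 0.32 and 0.33 for MEK-inhibited against acute. The comparisons share libraries (the chronic ones enter both of the former), so a gene high in chronic libraries tends to differ in opposite directions in them, and their values are given side by side only.

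**Figure D1:**
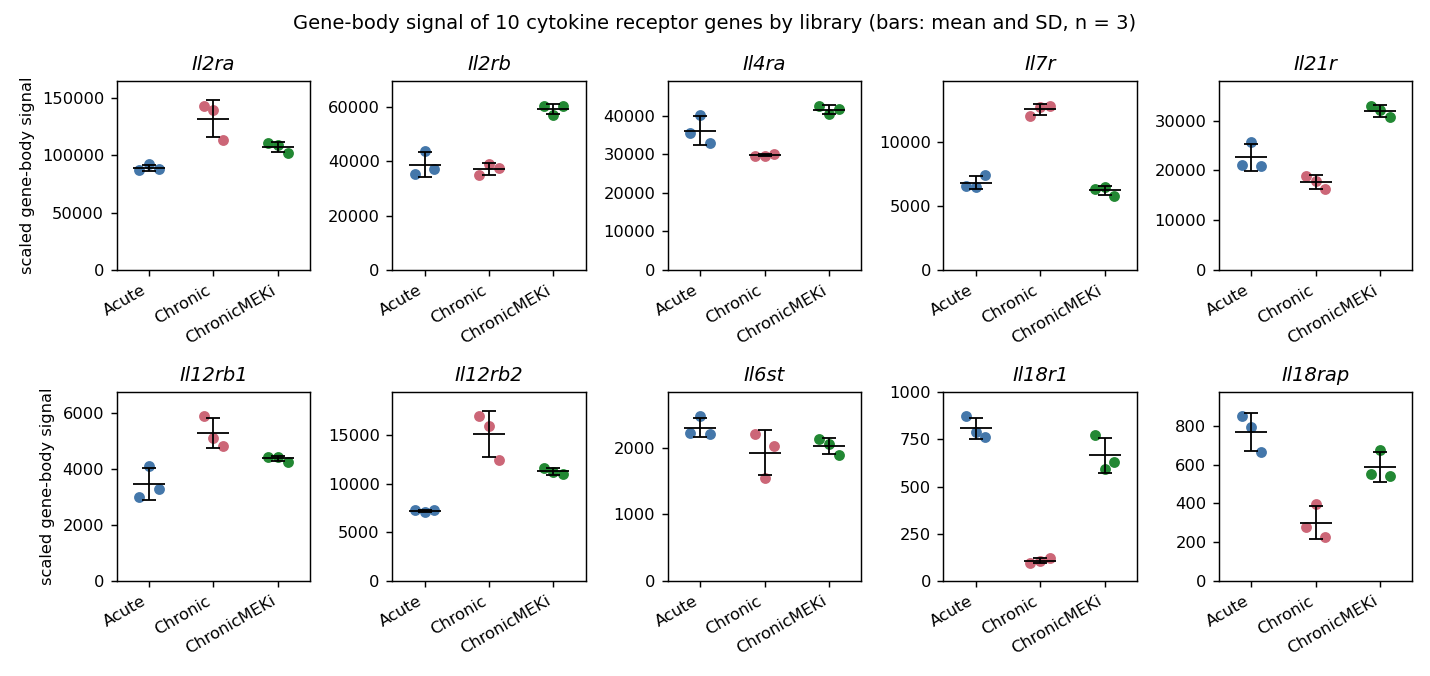
Scaled gene-body signal of the 10 receptor genes in each of the 9 libraries (points), with the mean and SD of 3 libraries per group (bars), on a linear axis from 0 for each gene. Il18r1 lies at 94.7 to 119 in the chronic libraries and at 594 or more in all others, while Il7r lies at 12065 or more in the chronic libraries and at 7432 or less in all others.

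Per kilobase of the transcript span, the members covered a wide range of levels. Under acute stimulation Il2rb was the highest, at 2416 ± 284 per kb (SD, n = 3), followed by Il2ra at 1766 ± 51.9, Il4ra at 1323 ± 136 and Il21r at 752 ± 89.4. Il7r (284 ± 21.9 per kb) and Il12rb1 (266 ± 44.7 per kb) came next and overlapped. Il12rb2 at 85.6 ± 1.49, Il6st at 50.2 ± 3.20, and the overlapping pair Il18r1 at 23.2 ± 1.64 and Il18rap at 21.2 ± 2.65 per kb were the lowest. Under chronic stimulation Il2ra (2618 ± 327 per kb) had the highest mean, but its libraries overlapped those of Il2rb (2316 ± 134 per kb). Il18r1 then stood last, at 3.03 ± 0.357 per kb, below Il18rap at 8.27 ± 2.39. With MEK inhibition Il2rb led at 3693 ± 122 per kb, ahead of Il2ra at 2126 ± 89.9, and Il12rb1 at 337 ± 7.52 stood above Il7r at 259 ± 15.9. All other neighbours in the order were apart in each of the groups, except Il18r1 and Il18rap with MEK inhibition.

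Il2ra encodes CD25, the alpha chain that raises the affinity of the receptor for IL-2. It lies on the plus strand of chromosome 2 at 11642807 to 11693193 (ENSMUSG00000026770.5, build GRCm38, as for all positions here). Its signal was 87275, 92006 and 87714 in acute libraries 1 to 3, 143132, 139580 and 112961 in chronic ones, and 110205, 109271 and 101935 with MEK inhibition. Every chronic library was above all acute ones, and the MEK-inhibited ones lay between the groups. The log2 fold change was 0.56 (SE 0.10, limma adjusted p = 0.000172) for chronic against acute, -0.29 (SE 0.10, adjusted p = 0.0435) for MEK-inhibited against chronic and 0.27 (SE 0.10, adjusted p = 0.0499) for MEK-inhibited against acute. With library totals these Il2ra values were 0.07, -0.19 and -0.12, none of them called. Without chronic replicate 1 or 2, or without MEK-inhibited replicate 2 or 3, the Il2ra difference between MEK-inhibited and chronic libraries was no longer called (-0.31 to -0.23). That between MEK-inhibited and acute libraries was lost when any 1 library other than chronic replicate 1 or 3 was left out (0.20 to 0.30). Gm37881 overlaps Il2ra on the same strand, so its share of the signal is uncertain.

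Il2rb encodes CD122, the chain that carries the signal of both IL-2 and IL-15. It lies on the minus strand of chromosome 15 at 78479256 to 78495271 (ENSMUSG00000068227.9). Its signal was 35182, 43835 and 37045 in acute, 34802, 39039 and 37447 in chronic, and 60207, 56888 and 60355 in MEK-inhibited libraries. The acute and chronic libraries overlapped, and all 3 MEK-inhibited libraries were above both. For chronic against acute the log2 fold change of Il2rb was -0.06 (95% interval -0.25 to 0.14, limma adjusted p = 0.673). This value was -0.55 and called lower (adjusted p = 0.000675) with library totals. MEK-inhibited libraries were higher than chronic ones by 0.67 (SE 0.09, adjusted p = 2.79e-05) and than acute ones by 0.62 (SE 0.09, adjusted p = 4.98e-05). The former was 0.78 and still called with library totals, the latter 0.23 and not called.

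Il4ra encodes the chain that binds IL-4 and, in another complex, transmits the signal of IL-13. It lies on the plus strand of chromosome 7 at 125552120 to 125579474 (ENSMUSG00000030748.9), and Gm44876 overlaps it on the other strand. Its signal was 35469, 40236 and 32885 in acute, 29729, 29635 and 30112 in chronic, and 42689, 40459 and 41925 in MEK-inhibited libraries. The 3 groups did not overlap, with the chronic libraries the lowest. The log2 fold change was -0.27 (SE 0.08, limma adjusted p = 0.0177) for chronic against acute and 0.48 (SE 0.08, adjusted p = 0.000438) for MEK-inhibited against chronic. The former was -0.19 and not called when acute replicate 2 was left out (adjusted p = 0.0924), nor was it called when chronic replicate 2 was left out (adjusted p = 0.0519). With library totals it was -0.76. The difference of 0.21 between MEK-inhibited and acute libraries was not called (adjusted p = 0.0819), except without acute replicate 2 (0.23, adjusted p = 0.0441) or chronic replicate 3 (0.21, adjusted p = 0.0179).

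Il21r, the receptor chain for IL-21, lies 24.0 kb beyond Il4ra on the same strand, at 125603429 to 125633570 (ENSMUSG00000030745.9). Its signal was 21124, 25686 and 20953 in acute, 18929, 17842 and 16228 in chronic, and 32977, 32191 and 30649 in MEK-inhibited libraries. Again the groups did not overlap and the chronic libraries were the lowest. The log2 fold change was -0.35 (SE 0.09, limma adjusted p = 0.0066) for chronic against acute, 0.86 (SE 0.09, adjusted p = 2.23e-06) for MEK-inhibited against chronic and 0.51 (SE 0.09, adjusted p = 0.000482) for MEK-inhibited against acute. The fall was not called without the filter on low signal (adjusted p = 0.0656) or without the trend and robust options of limma (adjusted p = 0.0579), and was -0.84 with library totals. The value against acute was 0.12 and not called with library totals.

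Il7r encodes CD127, the IL-7 receptor chain that sustains naive and memory T cells. It lies on the minus strand of chromosome 15 at 9505788 to 9530176 (ENSMUSG00000003882.5). Its signal was 6588, 6463 and 7432 in acute, 12065, 12734 and 12845 in chronic, and 6356, 6510 and 5786 in MEK-inhibited libraries. The chronic libraries stood above all others, and the acute and MEK-inhibited libraries overlapped. The log2 fold change was 0.88 (SE 0.09, limma adjusted p = 2.87e-07) for chronic against acute and -1.01 (SE 0.09, adjusted p = 1.23e-07) for MEK-inhibited against chronic. The rise of Il7r was 0.39 and still called (adjusted p = 0.0182) with library totals, and the fall was -0.91. MEK-inhibited against acute, Il7r differed by -0.13 (95% interval -0.32 to 0.05, adjusted p = 0.295), and by -0.52 with library totals, which was called (adjusted p = 0.00343). Its nearest measured neighbours, Spef2 at 48.0 kb and Capsl at 39.8 kb, which were looked up after the member values had been seen, were also higher under chronic stimulation, by 2.04 (adjusted p = 2.23e-08) and 2.14 (adjusted p = 0.0011). With MEK inhibition Spef2 fell by 2.48 on the log2 scale (adjusted p = 5.22e-09), and the -1.22 of Capsl was not called (adjusted p = 0.0729). Called neighbours are not particular to Il7r. Chronic against acute, Il15ra beside Il2ra was at -0.42 (limma adjusted p = 0.0192) and C1qtnf6 beside Il2rb at 1.02 (adjusted p = 0.0228). MEK-inhibited against chronic, Nsmce1 beside Il4ra was at 0.73 (adjusted p = 0.00026) and Gtf3c1 beside Il21r at 0.43 (adjusted p = 0.00237). Mast3 beside Il12rb1 was not called in any comparison.

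**Figure D2:**
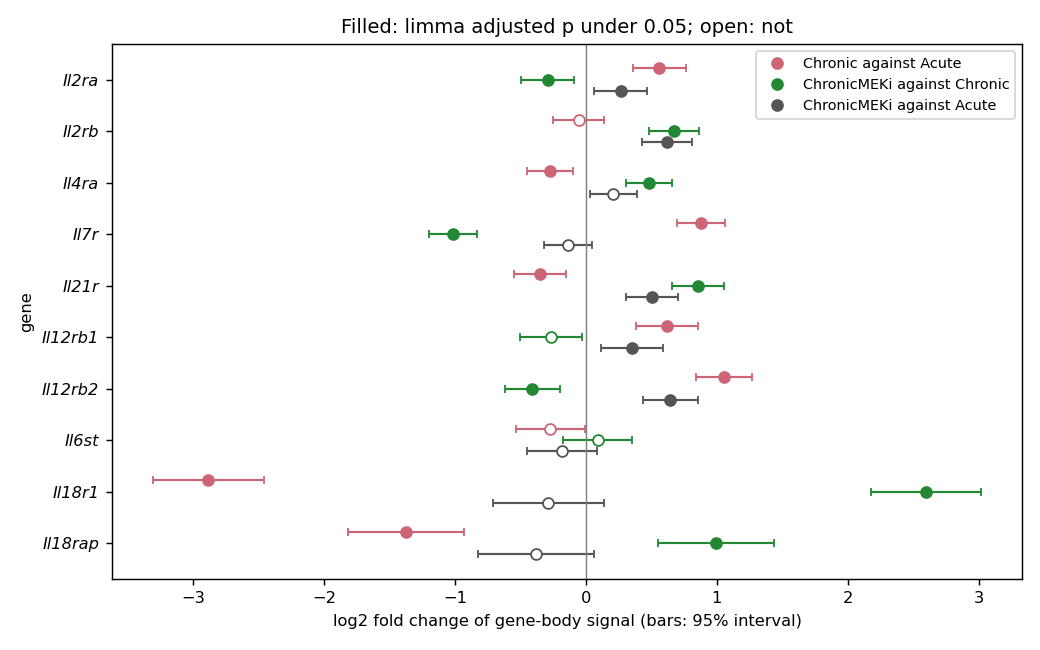
Log2 fold change of gene-body signal of each receptor gene in the 3 comparisons (points; filled where the limma adjusted p was under 0.05), with 95% intervals. Il18r1 lies farthest from 0, at -2.88 and 2.60, Il12rb2 at 1.06 and Il7r at 0.88 lie highest for chronic against acute, and the intervals of Il6st reach or nearly reach 0 in each comparison.

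The IL-12 receptor joins 2 chains, Il12rb1, which also serves the IL-23 receptor, and Il12rb2, which recruits STAT4. Il12rb1 lies on the plus strand of chromosome 8 at 70808449 to 70821424 (ENSMUSG00000000791.9), and Il12rb2 on the minus strand of chromosome 6 at 67291318 to 67376188 (ENSMUSG00000018341.12). Il12rb1 was at 2975, 4092 and 3268 in acute, 5870, 5105 and 4825 in chronic, and 4435, 4410 and 4255 in MEK-inhibited libraries. Il12rb2 was at 7259, 7065 and 7299, at 16955, 15921 and 12460, and at 11653, 11230 and 10965 in the same order. For both genes the groups did not overlap, and the MEK-inhibited libraries lay between the acute and the chronic ones.

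Il12rb2 had the largest rise of the 10 genes under chronic stimulation, 2.08-fold or 1.06 on the log2 scale (SE 0.10, limma adjusted p = 1.66e-07), and Il12rb1 rose by 0.62 (SE 0.11, adjusted p = 0.000292). Scaled by library totals, the rise of Il12rb2 was 0.56 (adjusted p = 0.00252), and that of Il12rb1 was 0.13 and not called. With MEK inhibition Il12rb2 fell by 0.41 on the log2 scale against chronic libraries (SE 0.10, adjusted p = 0.00718). The same difference for Il12rb1 was -0.27 and was not called (95% interval -0.50 to -0.03, adjusted p = 0.123). Against acute libraries, Il12rb2 was 0.65 higher with MEK inhibition (SE 0.10, adjusted p = 8.81e-05) and Il12rb1 0.35 higher (SE 0.11, adjusted p = 0.0266). With library totals the fall of Il12rb2 was -0.30 (adjusted p = 0.186), and its value against acute libraries was 0.26 (adjusted p = 0.167). That of Il12rb1 against acute libraries was -0.03 with library totals, and was no longer called without acute replicate 1 or 3 or any 1 of the MEK-inhibited libraries (0.20 to 0.37). Its difference from chronic libraries was called without acute replicate 1 (-0.32, adjusted p = 0.0468) or 2 (-0.33, adjusted p = 0.0166). Serbp1 overlaps the end of Il12rb2 on the other strand and was itself not called in any comparison (-0.09, -0.07 and -0.16).

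Il6st encodes gp130, the signalling chain shared by IL-6, IL-27, LIF and related ligands. It lies on the plus strand of chromosome 13 at 112464070 to 112510086 (ENSMUSG00000021756.12). Its signal was 2227, 2478 and 2219 in acute, 2210, 1550 and 2028 in chronic, and 2142, 2059 and 1902 in MEK-inhibited libraries. The chronic libraries ran below the acute ones by a small margin and spread across the MEK-inhibited ones. Il6st was not called in any comparison. Its log2 fold change was -0.27 for chronic against acute (95% interval -0.54 to -0.01, limma adjusted p = 0.106), 0.09 for MEK-inhibited against chronic (-0.17 to 0.35, adjusted p = 0.709) and -0.18 for MEK-inhibited against acute (adjusted p = 0.326). Without chronic replicate 1 the value for chronic against acute was -0.38 and called (adjusted p = 0.037). Against acute libraries Il6st was called lower with library totals, by -0.76 under chronic stimulation (adjusted p = 0.000265) and by -0.56 with MEK inhibition (adjusted p = 0.00574).

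Il18r1, the chain that binds IL-18, and Il18rap, the accessory chain that the signal requires, lie on the plus strand of chromosome 1, 14.5 kb apart, within a cluster of IL-1 receptor family genes. Il18r1 spans 40465552 to 40500854 (ENSMUSG00000026070.15) and Il18rap 40515362 to 40551705 (ENSMUSG00000026068.11). Il18r1 was at 873, 789 and 764 in acute, 94.7, 103 and 119 in chronic, and 771, 594 and 630 in MEK-inhibited libraries. Il18rap was at 851, 796 and 664, at 278, 397 and 227, and at 550, 679 and 541 in the same order. For both genes the chronic libraries were below all others, and the acute and MEK-inhibited libraries overlapped.

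Il18r1 had the largest fold change of the 10 genes in either direction. Its log2 fold change was -2.88 (SE 0.20, limma adjusted p = 2.7e-09) for chronic against acute and 2.60 (SE 0.20, adjusted p = 3.03e-08) for MEK-inhibited against chronic. Il18rap changed by -1.37 (SE 0.21, adjusted p = 5.11e-05) and 0.99 (SE 0.21, adjusted p = 0.00237). With library totals the values of Il18r1 were -3.36 and 2.69 and those of Il18rap -1.86 and 1.09, all called. MEK-inhibited against acute, Il18r1 differed by -0.29 (95% interval -0.71 to 0.14, adjusted p = 0.332) and Il18rap by -0.38 (-0.83 to 0.06, adjusted p = 0.206). With library totals both were called lower, at -0.67 (adjusted p = 0.0203) and -0.76 (adjusted p = 0.0096). In the same cluster Il1rl1, the receptor gene for IL-33, ends 0.137 kb before Il18r1 and had weak signal, 51.4 in acute, 9.57 in chronic and 32.7 in MEK-inhibited libraries on average. Il1r2, a decoy receptor for IL-1 in that cluster, was at 25.9, 114 and 36.0 in the same order. Of the libraries that reached the filter of 50 for Il1rl1, 3 were acute and 1 was MEK-inhibited, and for Il1r2 all 3 were chronic. Each gene thus passed the filter through the group where it is high, so its values are given as a description without a test.

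Il2ra stood highest relative to Il2rb in the chronic libraries, and Il18r1 lowest relative to Il18rap. The log2 ratio of 2 genes within a library does not depend on library scaling, apart from the 5 added to each value, and was compared for 4 pairs in 3 comparisons by two-sided exact permutation tests. With 3 against 3 libraries the smallest p these tests can give is 0.1, which is 0.133 after adjustment over the 12 tests, so none can pass 0.05. The log2 ratio of Il2ra to Il2rb had means of 1.21 ± 0.12 (SD, n = 3) under acute stimulation, 1.82 ± 0.22 under chronic stimulation and 0.86 ± 0.09 with MEK inhibition. The 3 groups did not overlap, and each difference had the exact p = 0.1. The ratio of Il18r1 to Il18rap was 0.07 ± 0.11, -1.44 ± 0.50 and 0.17 ± 0.34 in the same order. The chronic libraries lay below all others, with a difference of -1.51 from acute and of 1.61 to MEK-inhibited libraries (exact p = 0.1 for each), while MEK-inhibited and acute libraries differed by 0.10 (exact p = 0.6). The ratio of Il12rb1 to Il12rb2 was -1.08 ± 0.26, -1.51 ± 0.14 and -1.37 ± 0.02, and only its chronic and MEK-inhibited libraries overlapped (exact p = 0.2). The ratio of the neighbours Il4ra and Il21r was 0.68 ± 0.06 in acute and 0.76 ± 0.12 in chronic libraries, which overlapped (exact p = 0.5), and 0.38 ± 0.06 with MEK inhibition, below all others (exact p = 0.1).

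**Figure D3:**
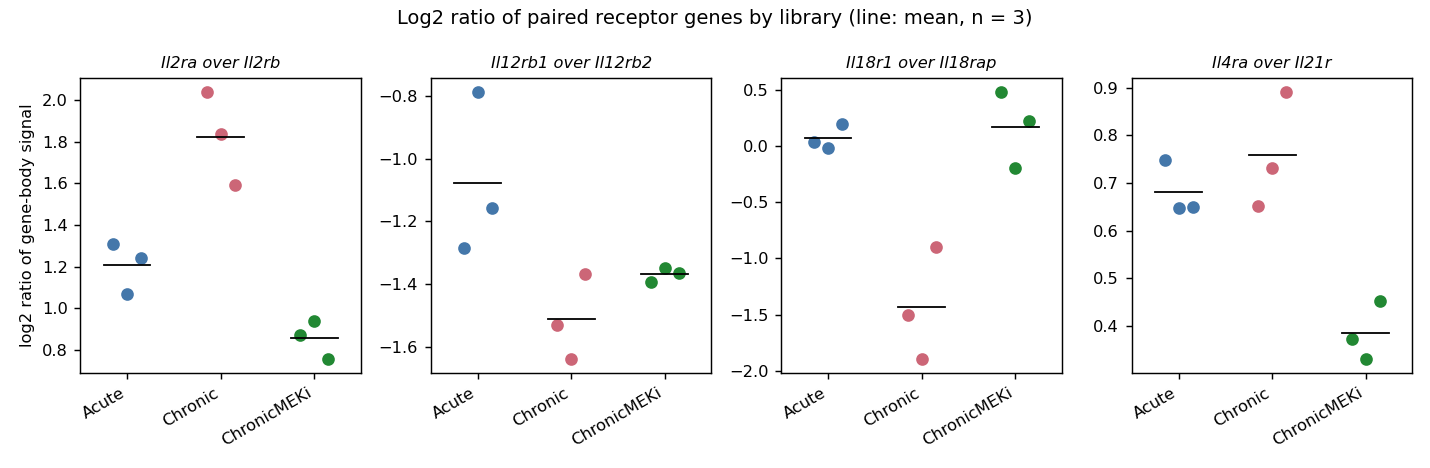
Log2 ratio of gene-body signal of 4 pairs of receptor genes in each library (points), with the mean of 3 libraries (line), each pair on an axis of its own that does not start at 0. Il2ra over Il2rb is highest in the chronic libraries, with a mean of 1.82, and Il18r1 over Il18rap lowest there, at -1.44.

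Signal in the pause region, the stretch near the transcription start, was weaker and noisier. Of the 10 members 9 passed the filter there, all but Il18rap, which was at 19.4 or less in every library. Chronic against acute, 2 of these 9 were called, against 10.7% of the 7678 genes tested. MEK-inhibited against chronic, 1 was called, against 3%, and none was called MEK-inhibited against acute, against 5.95% (at an unadjusted p under 0.05, 7, 7 and 1 members). Il12rb2 was at 91.8, 70.0 and 47.4 in acute, 249, 287 and 145 in chronic, and 152, 123 and 104 in MEK-inhibited libraries. Its chronic libraries were above all acute ones, by 1.62 on the log2 scale (SE 0.33, limma adjusted p = 0.00117). Il21r was at 1855, 2615 and 2135, at 1504, 1657 and 1417, and at 2948, 2470 and 2523 in the same order. Its chronic libraries were the lowest of the 9, with -0.52 (SE 0.17, adjusted p = 0.042) against acute and 0.79 (SE 0.17, adjusted p = 0.00484) for MEK-inhibited against chronic. Il18r1 was at 25.7 to 48.1 in acute, 4.18 to 19.1 in chronic and 24.2 to 102 in MEK-inhibited libraries, and its differences of -1.61 and 2.11 were not called. It passed the filter here only through acute and MEK-inhibited libraries, where it is high. Il18r1 is thus counted among the 9, but its pause-region values are a description and are not taken as tests. The call of Il21r for chronic against acute was lost when any library but acute replicate 1 was left out (adjusted p from 0.0544 to 0.131), and that for MEK-inhibited against chronic without MEK-inhibited replicate 1 (0.72, adjusted p = 0.061). With library totals the values of Il21r were -1.12 and 1.05, and 6 members were called for chronic against acute: Il12rb2 higher at 1.04, and Il2rb, Il4ra, Il6st, Il18r1 and Il21r lower, against 22.4% of all genes called and 20.8% called lower. The call of Il18r1 among these is not taken as a test.

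The difference between log2 pause-region and log2 gene-body signal shows whether both regions of a gene moved by the same amount. Limma called a change in it for 0 of the 9 members in each of the 3 comparisons, as it did for 0% of the 7413 genes tested. At an unadjusted p under 0.05 there were 1, 0 and 0 members and 749, 394 and 591 genes. The largest change among the members was that of Il18r1, 1.27 (SE 0.46, limma adjusted p = 0.412) for chronic against acute. Il18r1 changed by -2.88 in the gene body and by -1.61 in the pause region. Its pause-region signal in chronic libraries, 4.18 to 19.1, was near the constant added before logs, so the fall there is understated. With an added constant of 0.5 the pause-region value was -2.12. The 1.27 thus cannot show whether the regions of Il18r1 moved by different amounts.

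**Figure D4:**
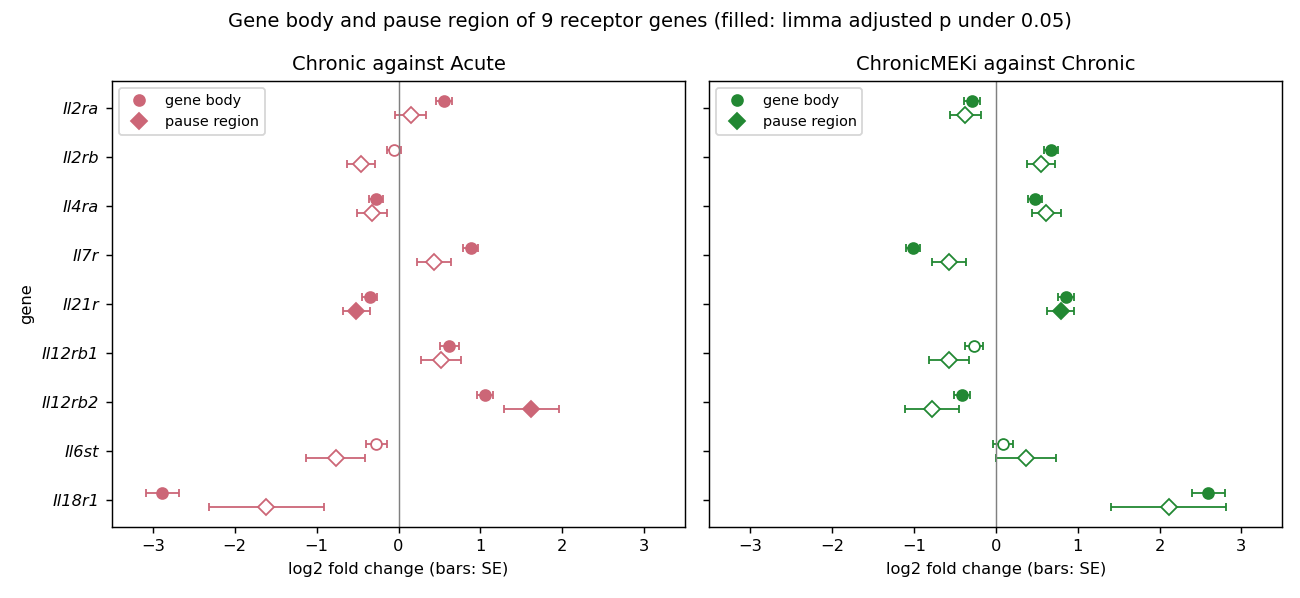
Log2 fold change of gene-body signal (circles) and pause-region signal (diamonds) of the 9 receptor genes tested in both, with standard errors; filled points had a limma adjusted p under 0.05. The diamonds have wider bars than the circles, and only Il12rb2 at 1.62 and Il21r at -0.52 and 0.79 are filled among them. Il18r1 passed the filter in the pause region through the groups where it is high, so its diamonds are not taken as tests.

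The row used for a gene is that of 1 transcript, and other rows of the same gene overlap it. Over the 6 rows of Il18r1 the log2 difference between chronic and acute means ran from -2.88 to -2.52, and over the 4 rows of Il7r from 0.88 to 1.06. It ran more widely over the 4 rows of Il18rap, from -1.37 to -0.61. Between MEK-inhibited and chronic libraries, the 2 rows of Il2ra gave -0.52, for a row of 5.92 kb at the 5′ end, and -0.29 for the row used. The 10 rows of Il6st ran from -0.33 to 0.19 there.

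The genes whose pattern was most like that of a member were listed by Pearson's r of log2 gene-body signal over the 9 libraries, among 15941 genes. Libraries of a group share their condition and scaling, so these r describe mainly the 3 group levels. Nearest to Il18r1 was Dtx3l (r = 0.995). Il7r was nearest to Dnajb4 (0.991), Serpinb6b and Pdcd1lg2, and Il12rb2 to Maml2 (0.996), Camk4 and Rab8b. Il21r was nearest to Susd3 (0.985), Ccdc6 and Stat3 (0.979), and Il4ra to Rnf31 (0.990), Bcl2l11 and Tbxa2r. Il2ra was nearest to Fcho2 (0.990), Commd10 and Atp5o, Il2rb to Crkl (0.976), Sla2 and Cebpb, and Il12rb1 to Hk1 (0.976) and Dhx37. For Il18rap the leading gene was Nck2 (0.990), and for Il6st it was 4732487G21Rik, at 0.959 the lowest of these leading values. Among the members themselves r was 0.97 between Il2ra and Il12rb2, 0.95 between Il4ra and Il21r, 0.90 between Il18r1 and Il18rap, -0.96 between Il7r and Il18r1 and -0.08 between Il2ra and Il2rb.

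Other receptor genes were counted for comparison. Of 32 listed, 25 passed the filter, and Il2rg, which encodes the common gamma chain, was not analysed here. Chronic against acute, 1 was higher (18% of all genes) and 12 were lower (15.9%). The median log2 fold change was -0.44, against a median of -0.02 over all genes tested and -0.16 over the 10 members. MEK-inhibited against chronic, 8 were higher (9.93% of all genes) and 2 lower (7.65%), with a median of 0.40, against 0.04 and 0.29. Il1r2 is the 1 counted as higher and is among the 2 lower, and Il1rl1 is among the 12 lower. Both passed the filter as described, so their calls are counted but not taken as tests. With library totals the counts were 1 higher and 13 lower (6.87% and 42.9% of all genes), and 8 higher and 1 lower (11.1% and 4.65%). Ifngr2, a chain of the interferon gamma receptor, was at 2700 ± 349 (SD, n = 3) under acute stimulation, 392 ± 5.81 under chronic stimulation and 2092 ± 342 with MEK inhibition, with log2 fold changes of -2.76 (limma adjusted p = 5.22e-11) and 2.39 (adjusted p = 1.13e-09). Tgfbr1, a chain of the TGF-beta receptor, changed by -2.30 and 1.89, both called. Il6ra, which pairs with the product of Il6st, was at 825 ± 76.5 in acute, 837 ± 118 in chronic and 245 ± 55.0 in MEK-inhibited libraries, a difference of -1.77 to chronic (adjusted p = 2.65e-06). Il6ra was thus lower with MEK inhibition, where Il6st differed by 0.09 and was not called.

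**Figure D5:**
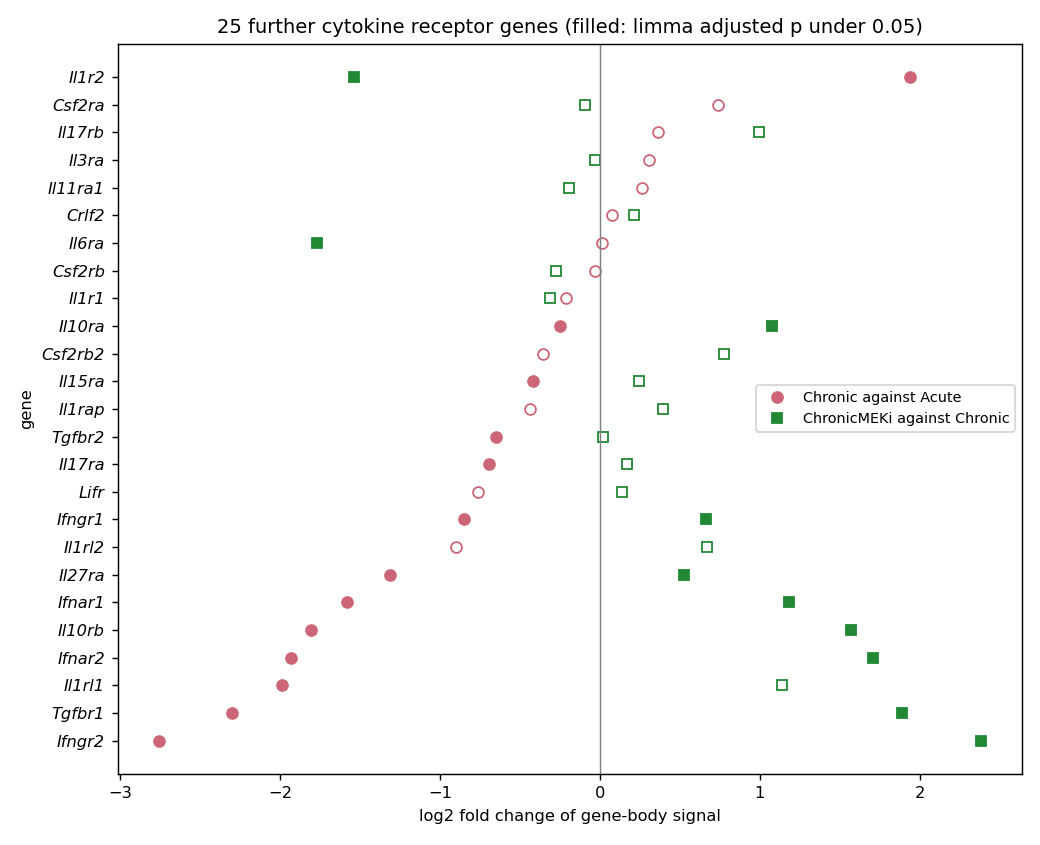
Log2 fold change of gene-body signal of the 25 further cytokine receptor genes tested, ordered by chronic against acute (circles), with MEK-inhibited against chronic beside it (squares); filled points had a limma adjusted p under 0.05. Ifngr2 lies at -2.76 and 2.39 and Tgfbr1 at -2.30 and 1.89. Il1rl1 and Il1r2 passed the filter through the group where they are high, so their filled points are not taken as tests. Both comparisons share the chronic libraries.

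Of 17 signalling genes measured below these receptors, 0 were higher and 7 lower under chronic than under acute stimulation, and 5 were higher and 0 lower with MEK inhibition than under chronic stimulation alone (0 and 12, and 5 and 0, with library totals, against the shares of all genes given above). Traf6, an adaptor below the IL-18 receptor, was lower by -1.02 under chronic stimulation (limma adjusted p = 1.32e-07), as was Stat4, the STAT factor below the IL-12 receptor, by -0.60 (adjusted p = 0.000199). Irak2, a kinase of the MyD88 pathway, was 1.30 higher with MEK inhibition than under chronic stimulation (adjusted p = 3.32e-07). Stat5a and Stat5b, which act below Il2rb and Il7r, were at 0.08 and -0.14 for chronic against acute and were not called, but with library totals they were -0.41 and -0.63 and both called lower (adjusted p = 0.0188 and 0.000307). MEK-inhibited against chronic, Stat5b was higher by 0.32 (adjusted p = 0.0278) and Stat5a was at -0.09 and not called. Of 12 feedback genes, 3 were lower under chronic stimulation (Socs2, Socs5 and Pias1), against 15.9% of all genes. With MEK inhibition 4 were higher, these and Socs3, against 9.93% of all genes. With library totals the counts were 11 and 8, against 42.9% and 11.1% of all genes. Most ligands of the members were too weak to test: of 13 listed genes 4 passed the filter, and Il2, Il7, Il12a, Il12b, Il18 and Il21 did not. Lif, a ligand that acts through Il6st, was at 33015 ± 4416 (SD, n = 3) under acute stimulation, 15515 ± 1709 under chronic stimulation and 27553 ± 1565 with MEK inhibition, with log2 fold changes of -1.09 (adjusted p = 1.53e-07) and 0.83 (adjusted p = 9.6e-06). Il4, a ligand of Il4ra, was at 722 ± 165 in acute, 1408 ± 183 in chronic and 457 ± 51.9 in MEK-inhibited libraries (log2 fold changes of 0.98 and -1.61, both called; 0.49 and -1.50 with library totals, the former not called, adjusted p = 0.0512), and Il13 at 282 ± 23.6, 9661 ± 1328 and 412 ± 136 (5.07 and -4.59, both called).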

How the data were processed

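Nascent RNA of mouse CD8+ T cells was captured after 5-ethynyl uridine and sequenced as paired reads of 100 bases, per the labels' protocols. The authors deposited 2 tables of signal per transcript, read here as gene body and pause region. They are named as counts, but low values in them are whole multiples of a step (0.764 to 1.06 by library), and values of 4 steps were more frequent than values of 1 step in every library, so a step is not a read and no count model was used. STAR 2.7.0a, Trim Galore 0.6.10 and build mm10 are listed, without their role, per the submitters' processing notes. The limits of the regions, the counter and its use of strand are not given in the sources used here.

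Of 118482 rows, 117346 matched GENCODE M21 (GRCm38) by transcript with version, 383 without it, and 753 were left out; rows lay on chromosomes 1 to 19, and 0 columns belonged to unmapped samples. For each gene, the transcript row strongest on average in the gene-body table was used. Libraries were brought to 1 scale, separately in each table, by a trimmed mean of log ratios without weights (30% of ratios and 5% of levels trimmed at each end). Genes that reached 50 in 3 or more libraries were tested on log2(signal + 5) with limma 3.58.1 (trend, robust; R 4.3.3), with 1 mean per group over all 9 libraries, after a test on simulated data. Fold changes are on that scale and are understated for weak genes. Adjusted p-values are limma's, by Benjamini and Hochberg over all genes tested. Joins and exact tests used Python 3.11.15, pandas 2.3.3 and scipy 1.17.1.

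The members, the lists and the alternatives were chosen with earlier results of these data known. Named outside the members are the called genes with the largest change of each list (at most 4), genes beside the members, and up to 3 genes most like each member by Pearson's r; an item that these rules would name is not reported here. Promoter windows are RefSeq's for GRCm38.p6. Alternatives were other scalings, added constants of 0.5 and 20, no filter or a filter at 200, the longest transcript, a replicate block, limma without trend and robust options, and leaving out each library.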

Additional observations from a re-analysis of the deposited data

How the results depend on the processing

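Called gene-body fold changes of members numbered 21 and were recomputed under 19 alternatives. Of these 399 values, 348 kept direction and call, 48 kept only the direction and 3 reversed. Reversed, for MEK-inhibited against acute, were Il2ra (-0.12 with library totals, -0.076 with the deposited scale) and Il12rb1 (-0.029 with library totals), and, not called either way, Il4ra (-0.18 and -0.13). Without 1 library, Il2rb ranged from -0.13 to 0.047 for chronic against acute and Il6st from -0.061 to 0.19 for MEK-inhibited against chronic, neither of them called with all libraries. The 5 gene-body calls against acute became 3 without the filter or without trend and robust options, and 3 to 6 without 1 library. In the pause region, the 2 calls for chronic against acute became 6 with library totals (Il18r1 among them, not taken as a test), 1 with the deposited scale, with totals free of rows resembling ribosomal RNA or without trend and robust options, and 1 to 2 without 1 library. The 1 pause-region call for MEK-inhibited against chronic became 3 with library totals, 2 with the deposited scale, 3 with a filter at 200, 0 without trend and robust options, and 0 to 3 without 1 library. With an added constant of 20, 1 member was called for the pause-to-body difference between chronic and acute. The cause was not tested. Depth in reads is unknown.

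In gene-body signal, deviations of same-numbered libraries correlated at 0.07 to 0.10 for chronic against acute, -0.15 to 0.09 for MEK-inhibited against chronic and -0.53 to -0.01 for MEK-inhibited against acute. With 3 libraries per group these values cannot settle whether replicate numbers pair the libraries. With the replicate block, gene-body calls were 8, 8 and 5 (34.5%, 18.5% and 26.7% of all genes) and pause-region calls 3, 3 and 0 (11.3%, 3.39% and 6.69%) in that order.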
